A study of Homo sapiens with 6 samples.

Results

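The stretch described here is a run of neighbouring protein-coding genes on the long arm of chromosome 9, from ZNF618 to C9orf78 in GRCh38 gene order. Between and including these ends lie 155 protein-coding genes, of which 140 were kept by the rule that defines the stretch and 86 of those had a named probe set. These 86 genes are the members, out of 14884 genes named on the arrays. The other 54 kept genes were not analysed here. The rule left out 15 genes that belong to families treated separately, among them TNC, TRAF1 and genes of nuclear pore proteins, and 6 of those were measured. The run was chosen by the log2 changes between these same 6 arrays, in which its genes measured jointly higher in NR1D1 knockout cells, so its values for that contrast are given as a description, with no test.

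The cells were MDA-MB-231, an established line from a human breast carcinoma of triple-negative type. One group of 3 arrays carried the genotype label Control and the other group of 3 the label NR1D1 KO, a knockout of the gene for REV-ERBα, a heme-binding nuclear receptor that represses transcription. All 6 samples had been kept for 72 h in 200 µM hydrogen peroxide (H2O2), so no array shows either genotype without peroxide. The labels do not say how the knockout was made, whether the line is 1 clone, or whether the biological replicates of a group were separate cultures, so spreads and p-values measure the variation between these arrays, which may be technical.

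As background, neighbouring genes on a chromosome mostly have unrelated functions and separate promoters, and what they share first of all is the DNA molecule that carries them. When a segment of a chromosome is gained or lost, transcript levels of the genes on it tend to follow the number of copies, and carcinoma lines such as MDA-MB-231 have abnormal and varying chromosome numbers. Genes that are silent in a cell show no such step, and genes under strong feedback or induction may depart from it. No DNA copy number was analysed here. The question that can be put to these data is how the size of the shift compares with the steps that whole copies would give, how even it is from gene to gene, and where along the chromosome it begins and ends.

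Array-wide checks were as follows. The array medians of the deposited log2 values lay between 5.18 and 5.22. NR1D1 had no named probe set here, so its transcript gives no check of the genotype labels. Of 29 marker genes of this and other cell types 18 were measured. The carcinoma markers VIM, CD44, AXL and S100A4 had control means between 8.17 and 11.8, with 1 called higher and 1 lower, and the hormone receptor genes ESR1 and PGR stood near 5.19 and 3.99. Of 5 luminal markers measured 1 was called higher and 1 lower, and KRT19 was at 8.15 in control arrays. Of 3 leukocyte markers the summed log2 level was 20.77 to 20.82 on control and 19.98 to 20.1 on knockout arrays, with the lysosomal gene CD68 lower and no other called. Of 3 fibroblast markers, with control means of 2.57 to 5.8, none was called, and the 3 endothelial markers summed to 16.08 to 16.39 on control and 16.12 to 16.8 on knockout arrays, with KDR called higher. The part of these markers in the results below was not tested. In bulk RNA, a change in the cells that make up a sample and a change in RNA per cell cannot be told apart.

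Most members were modestly higher in the knockout. Of 86, 70 had a log2 change above 0, and the median change was 0.273, or 1.21-fold, with quartiles of 0.0767 and 0.411. The same median over 11824 protein-coding genes outside the stretch was 0.00292, with 50.8% of genes above 0. In limma with Benjamini-Hochberg adjustment over all 14884 genes, 32 members passed an adjusted p of 0.05 as higher and 2 as lower, where 4.74% of all genes were called higher and 4.74% lower. Because this contrast chose the run, nothing is read from these counts. The values of the 3 knockout arrays lay above those of all 3 control arrays for 52 members and below them for 6, against 15.1% and 13.6% of all genes. With 1 array left out the number of members called higher was 14, 17 and 14 when control replicate 1, 2 or 3 was dropped, and 27, 15 and 17 when knockout replicate 1, 2 or 3 was. Of the 32, 13 remained called in each of these 6 fits, namely CDK5RAP2, FBXW2, PHF19, C5, CNTRL, STOM, RABGAP1, NEK6, SCAI, ZNF79, COQ4, ODF2 and GLE1.

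The median shift over all members was alike on the 3 knockout arrays. The median over members of the value minus the member's own control mean was 0.267, 0.267 and 0.294 on knockout replicates 1, 2 and 3. On the control arrays it was -0.0028, 0.00826 and -0.00108. The corresponding medians over protein-coding genes outside the stretch stayed between -0.00627 and 0.0236 on all 6 arrays. The control medians lie near 0 because each value is taken against the control mean, and the gap between the groups is the contrast that chose the run.

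**Figure D1:**
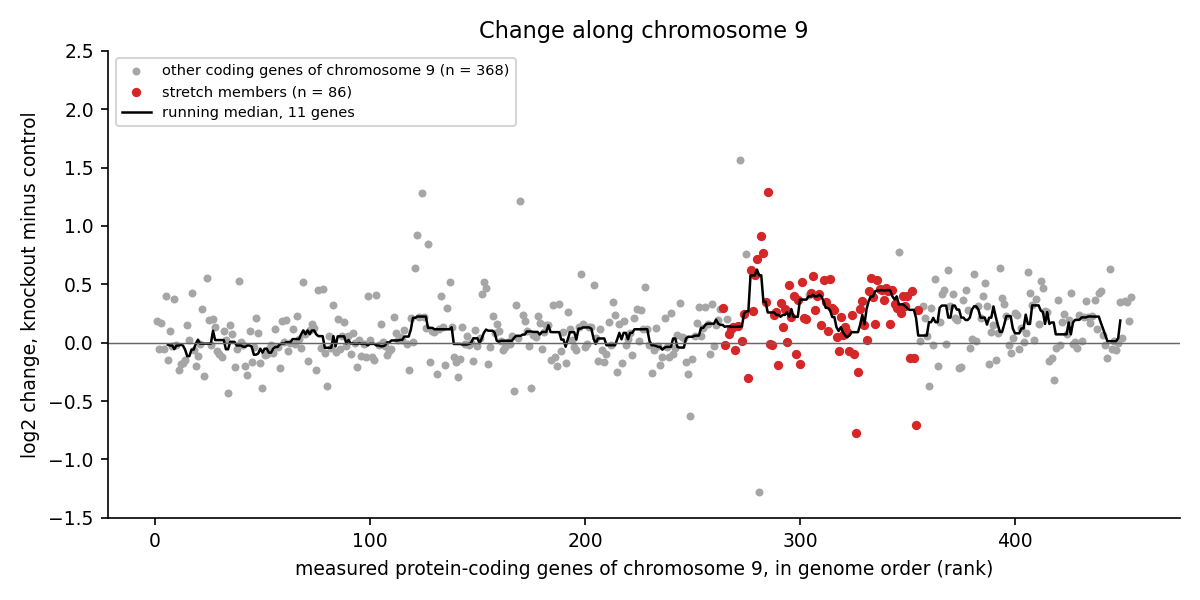
Log2 change, knockout minus control, of every measured protein-coding gene of chromosome 9 in genome order, with the 86 members in red, the other 368 genes in grey and a running median over 11 genes as a black line. The running median is near 0 over most of the left part, reaches its highest value of 0.626 at PHF19 and stays mostly above 0 to the right end.

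The change of members was uneven along the stretch, and its median was small at the first end. The first 10 members, from ZNF618 to BRINP1, had a median log2 change of 0.0947. KIF12, TNC and TLR4, which lie among them but were left out by the rule, differed by 0.21, 1.56 and 0.76. ZNF618, a zinc finger gene and the first of the run, measured 6.57, 6.56 and 6.44 on control and 6.81, 6.81 and 6.85 on knockout arrays, a difference of 0.30 with no overlap. Its successors AMBP, ORM1 and ORM2, genes of plasma proteins made in liver, differed by -0.02, 0.07 and 0.12 with overlapping groups, and BRINP1, a gene of the nervous system, by -0.30. From CDK5RAP2 onward the median change of members was higher, at 0.289 over 76 members. The median control level was 7.29 for these 76 and 5.67 for the first 10, and the part of level in this difference was not tested. CDK5RAP2 itself, whose product recruits microtubule-nucleating complexes to the centrosome, measured 8.14, 8.10 and 8.12 on control and 8.73, 8.82 and 8.68 on knockout arrays, a 1.54-fold difference. In 3 consecutive blocks of near-equal size, the medians were 0.238 from ZNF618 to GPR21, 0.22 from STRBP to LCN2 and 0.344 from BBLN to C9orf78.

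At the other end, C9orf78, a gene of a spliceosome-associated protein, measured 7.26, 7.37 and 7.26 on control and 7.58, 7.70 and 7.46 on knockout arrays, without overlap. The last 10 members had a median change of 0.287. The 10 measured coding genes just outside the first end had a median of 0.158, with RGS3 at 0.29, ALAD at 0.20 and HDHD3 at 0.15 as the nearest, and none of the 10 was called. Just outside the second end the 10 genes had a median of 0.118. Of these USP20 measured 0.01, FNBP1 0.32 and GPR107 0.21, and FNBP1 and EXOSC2 were called higher. The values just inside and just outside each end therefore overlapped, and neither end marks a sharp edge over genes of every level.

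How bright a probe set was went along with the size of its change. All named protein-coding genes were divided into 3 equal groups, low, middle and high, by mean level over the 6 arrays, with cuts at 5.69 and 7.33 on the log2 scale, a rough division since the brightness of probe sets differs between genes for reasons other than transcript number. The 10 members in the low group, among them the liver genes above, MORN5, LHX6 and ENG, had a median change of -0.0155, with none called and 4 above 0. The 33 members in the middle group had a median of 0.222. The 43 members in the high group had a median of 0.351, with quartiles of 0.244 and 0.452, and 41 of them lay above 0. Over protein-coding genes outside the stretch the medians of the low, middle and high groups were -0.0174, 0.0028 and 0.0323.

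**Figure D2:**
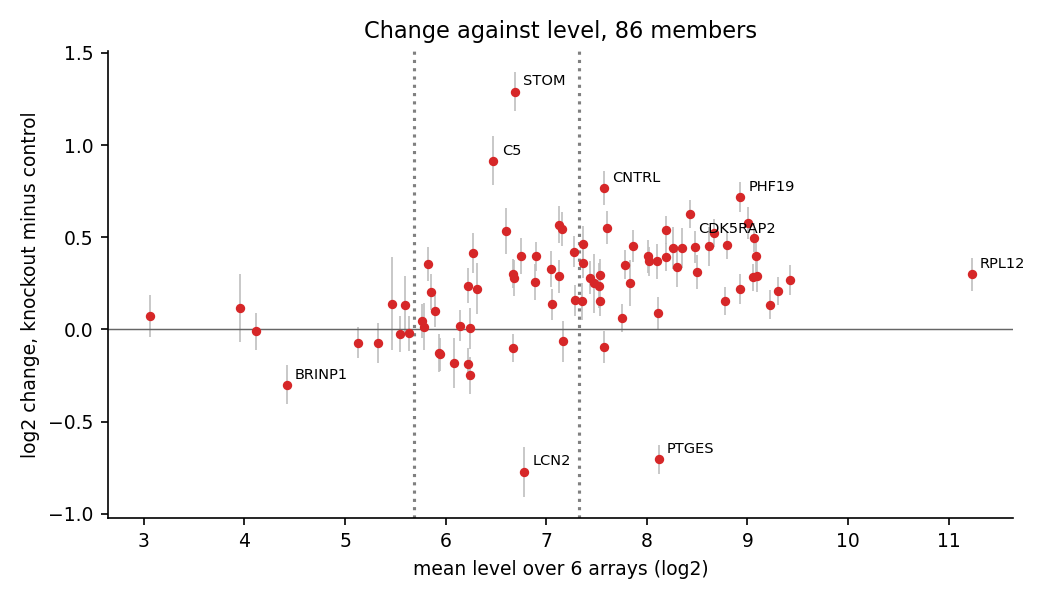
Log2 change, knockout minus control, against the mean log2 level over 6 arrays for the 86 members, with bars of 1 standard error from limma and dotted lines at the cuts between the level groups, 5.69 and 7.33. Members left of the first cut lie around 0, and those right of the second lie mostly between 0.2 and 0.6, with PTGES far below.

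Genes of the high group were also followed along the chromosome, in blocks laid out after the values were seen. Counted back from ZNF618 toward the other end of the chromosome in blocks of 15 such genes, the medians were 0.0591, 0.0901, 0.103, 0.0855 and 0.115, with 0.11 for a last block of 8. Within the stretch they were 0.351 from TRIM32 to GAPVD1, 0.298 from MAPKAP1 to GLE1 and 0.37 from DYNC2I2 to C9orf78. Beyond C9orf78 the medians remained at 0.31 from FNBP1 to VAV2, 0.331 from BRD3 to CLIC3 and 0.357 from UAP1L1 to EHMT1, which is the last measured coding gene of the chromosome. Of the 39 genes of this group beyond the stretch 38 lay above 0, with a median of 0.331, close to the 0.351 of the members. Of the 83 before the stretch 54 lay above 0, with a median of 0.102. The blocks were cut at the ends of the stretch, which these same changes chose, so they cannot place a step at the first end. Of the members before CDK5RAP2, only TRIM32, at 0.25, was of the high group. Beyond the second end no step back was seen in these brighter genes up to the end of the chromosome.

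Whole chromosomes give a scale for this. The median change of the high group was 0.216 over the 167 such genes of chromosome 9, members included, and 0.212 over the 234 of chromosome 6. Chromosome 13 had the lowest value, -0.209 over 69 genes, followed by chromosome X at -0.132 over 116. The other chromosomes lay between -0.127 and 0.0775. Chromosome 9 was therefore not alone in showing a median away from 0.

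The size of the shift was set beside ratios of whole copies. On the log2 scale a ratio of 5 copies to 4 is 0.322, of 4 to 3 is 0.415 and of 3 to 2 is 0.585. The median of the 43 members of the high group, 0.351 or 1.28-fold, lay between the first pair of ratios, and that of all members, 0.273, below the smallest. On single arrays the median of the high group against control means was 0.312, 0.354 and 0.398 on knockout replicates 1, 2 and 3. The first of these lay below 0.322 and the last near 0.415. For single members of that group, the 95% confidence interval of the change from limma held 0.322 for 31, 0.415 for 30 and 0.585 for 19 of 43, and held 0 for 10. Over all 86 members the interval held 0.322 for 51, 0.415 for 49, 0.585 for 26 and 0 for 34. A single ratio did not cover every member. The interval lay wholly below 0.322 for 24 of all 86 members and wholly above it for 11. Among the 43 of the high group it lay below for 5 and above for 7. The intervals are wide, so adjacent ratios were compatible with many of the same genes.

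The members did not share 1 value of change. Their changes had a standard deviation of 0.302, against a median standard error of 0.0907 for a single change. In the high group the standard deviation was 0.236 and the median standard error 0.0853, while genes of that group outside the stretch spread by 0.313. On chromosome 9 genes of that group spread by 0.188 after the stretch and by 0.247 before it. In all, 48 members changed by between 0.2 and 0.6, 17 by between 0 and 0.2, 16 lay below 0 and 5 lay above 0.6. Without LCN2 and PTGES, left out after their values were seen, the median was 0.28 and the standard deviation 0.264. Folds on arrays are often smaller than the true ratios. Whether the number of DNA copies differed between the groups was not tested, and it cannot be told apart here from regulation that acts on many neighbours at once.

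**Figure D3:**
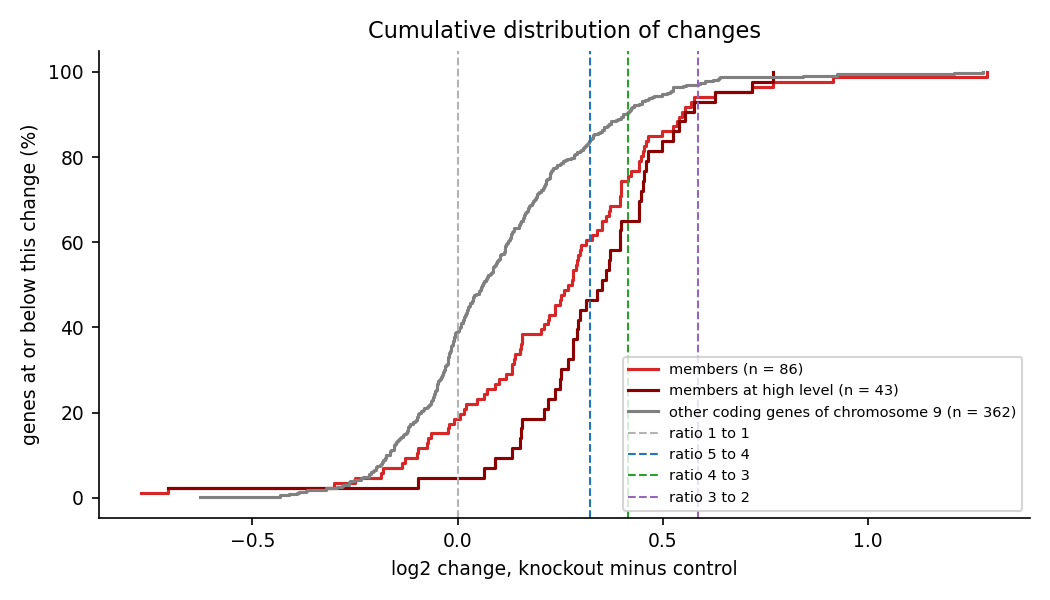
Cumulative share of genes (vertical axis, percent) at or below each log2 change, knockout minus control, for all 86 members, the 43 members of the high level group and 362 other coding genes of chromosome 9, with dashed lines at copy ratios of 1 to 1, 5 to 4, 4 to 3 and 3 to 2. The steep part of the curve for the 43 brighter members runs across the 5 to 4 and 4 to 3 lines, while that of the other genes runs near 0.

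A few members stood well above the rest, and the 4 with the largest change lie between positions 14 and 18 in the order of members. STOM, the gene of the membrane protein stomatin, measured 6.09, 6.14 and 5.89 on control and 7.43, 7.16 and 7.40 on knockout arrays, a 2.45-fold difference. C5, the complement component from which the C5a anaphylatoxin is cut, measured 5.74, 6.23 and 6.09 on control and 6.80, 6.97 and 7.02 on knockout arrays, or 1.88-fold. CNTRL, which encodes centriolin of the centriole, measured 7.29, 7.08 and 7.20 against 8.04, 7.99 and 7.85, or 1.7-fold. PHF19, a Polycomb-like subunit of the histone methyltransferase complex PRC2, measured 8.57 on each control array and 9.38, 9.19 and 9.30 on knockout arrays, or 1.64-fold. In each of these genes every knockout array was above every control array, and the running median over 11 neighbours was at its highest, 0.626, around PHF19. All 4 folds are above the 1.5-fold that a 3 to 2 ratio would give, but the intervals of only 2 members, STOM and C5, lay wholly above it.

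Several other members of the high group had changes above its upper quartile of 0.452 and below that of PHF19, among them the following. ODF2, a gene of a centriole appendage protein, measured 7.98, 7.87 and 7.93 on control and 8.49, 8.44 and 8.47 on knockout arrays. FBXW2, which encodes a substrate receptor of an SCF ubiquitin ligase, measured 8.63, 8.75 and 8.78 against 9.39, 9.30 and 9.21. GLE1, an mRNA export factor gene, measured 8.56, 8.61 and 8.53 against 8.97, 9.04 and 9.07. These 3 were 1.45-fold, 1.49-fold and 1.38-fold higher, with gaps between the groups well above the spread within either. NEK6, a gene of a mitotic kinase, was 1.44-fold higher, from 8.48, 8.36 and 8.38 to 8.98, 8.90 and 8.91, and COQ4, needed for coenzyme Q synthesis, 1.47-fold, from 7.34, 7.30 and 7.36 to 7.79, 8.04 and 7.83.

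LCN2 and PTGES went clearly the other way. LCN2 encodes lipocalin 2, an iron-siderophore-binding protein known to be induced by NF-κB, and it measured 7.20, 7.29 and 7.01 on control and 6.54, 6.11 and 6.53 on knockout arrays, 1.71-fold lower. PTGES encodes the inducible microsomal prostaglandin E synthase, and it measured 8.50, 8.50 and 8.42 on control and 7.84, 7.69 and 7.76 on knockout arrays, 1.63-fold lower. Both groups were apart in each gene. These were the 2 members called lower, although PTGES is the neighbour of C9orf78 in the measured order and LCN2 lies among members with changes on both sides of 0. BRINP1, PTGS1, CRB2 and BBLN also had all knockout arrays below all control arrays, with smaller changes of -0.30, -0.19, -0.10 and -0.25 that were not called.

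**Figure D4:**
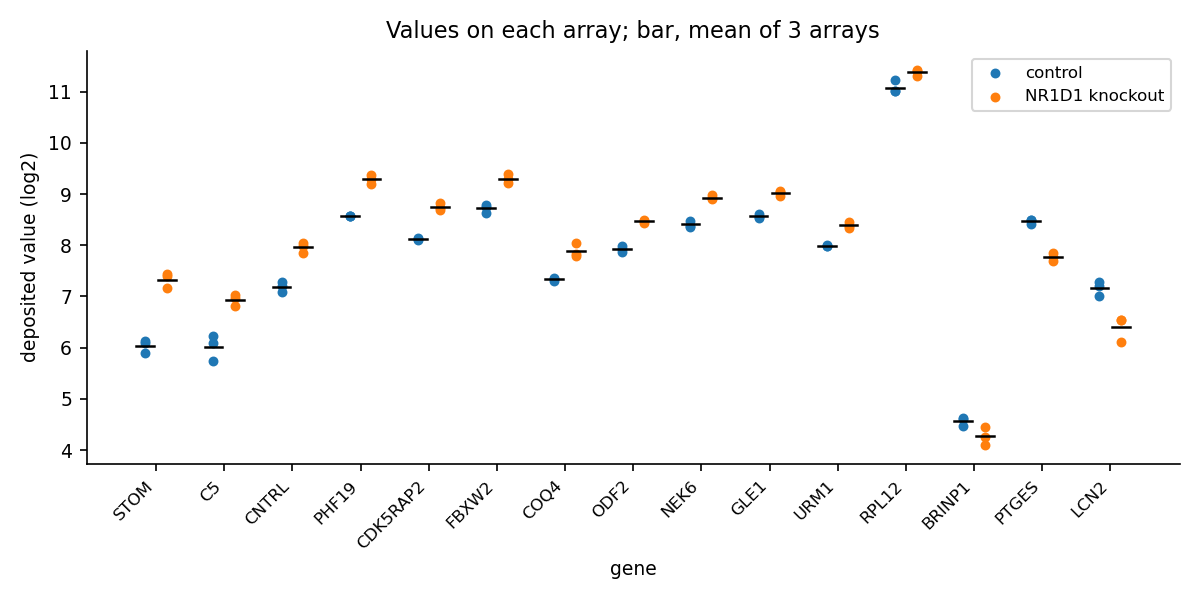
Deposited log2 values of 15 members on the 3 control arrays (blue) and the 3 NR1D1 knockout arrays (orange), with the mean of each group as a black bar. STOM, C5, CNTRL and PHF19 show the widest gaps upward, URM1 and RPL12 small ones, and BRINP1, PTGES and LCN2 lie lower on the knockout arrays.

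The promoters of members are shown for STOM, as the member with the largest change, for CDK5RAP2 and ODF2, as members called in every fit with 1 array left out, and for LCN2 and PTGES, as the pair that ran against their neighbours. The sequences are from RefSeq on GRCh38.p14 and run 5′ to 3′ on the gene's strand, from 250 bases before the start to 50 after it, with the first listed start used where a gene has several. Capitals mark matches on either strand to AGGTCA, the nuclear receptor hexamer that REV-ERBα recognises within a longer element, to TATAAA, a classical core promoter element, to CCAAT, which the factor NF-Y binds, or to CACGTG, an E-box of the kind bound by clock and other basic helix-loop-helix factors.
STOM (chr9:121370201-121370500, minus strand): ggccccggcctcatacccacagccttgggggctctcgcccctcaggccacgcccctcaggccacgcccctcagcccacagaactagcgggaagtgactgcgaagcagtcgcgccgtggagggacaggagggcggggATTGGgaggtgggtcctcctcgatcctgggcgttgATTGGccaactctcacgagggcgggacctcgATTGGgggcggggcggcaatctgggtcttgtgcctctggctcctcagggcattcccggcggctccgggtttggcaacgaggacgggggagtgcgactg
CDK5RAP2 (chr9:120580118-120580417, minus strand): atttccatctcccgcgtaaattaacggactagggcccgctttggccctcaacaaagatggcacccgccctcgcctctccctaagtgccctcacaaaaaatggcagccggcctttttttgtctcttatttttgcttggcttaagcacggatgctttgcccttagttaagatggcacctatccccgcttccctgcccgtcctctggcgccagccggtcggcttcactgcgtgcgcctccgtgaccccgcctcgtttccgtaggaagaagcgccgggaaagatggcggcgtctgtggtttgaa
ODF2 (chr9:128454935-128455234, plus strand): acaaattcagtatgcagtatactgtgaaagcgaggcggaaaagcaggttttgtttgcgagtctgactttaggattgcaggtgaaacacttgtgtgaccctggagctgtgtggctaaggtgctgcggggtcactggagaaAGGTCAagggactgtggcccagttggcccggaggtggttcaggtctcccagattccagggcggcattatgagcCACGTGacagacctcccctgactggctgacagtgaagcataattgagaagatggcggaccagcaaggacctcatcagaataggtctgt
LCN2 (chr9:128149203-128149502, plus strand): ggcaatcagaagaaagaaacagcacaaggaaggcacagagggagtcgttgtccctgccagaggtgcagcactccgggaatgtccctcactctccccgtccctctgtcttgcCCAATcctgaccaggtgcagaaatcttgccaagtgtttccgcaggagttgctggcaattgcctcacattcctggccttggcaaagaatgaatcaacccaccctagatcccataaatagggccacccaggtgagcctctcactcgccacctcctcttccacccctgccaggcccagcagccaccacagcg
PTGES (chr9:129752993-129753292, minus strand): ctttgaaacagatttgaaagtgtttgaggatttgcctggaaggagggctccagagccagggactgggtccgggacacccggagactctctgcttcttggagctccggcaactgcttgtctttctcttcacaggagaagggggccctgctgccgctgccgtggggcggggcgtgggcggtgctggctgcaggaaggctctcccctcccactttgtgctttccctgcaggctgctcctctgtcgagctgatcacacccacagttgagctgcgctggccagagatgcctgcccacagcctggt

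Promoter sequences were listed for 76 of 86 members. AGGTCA was found in 8 of them (10.5%), against 11.7% of 15843 protein-coding genes. Among the 27 members called higher with a sequence it was found in 4 (14.8%), ODF2 among them. PTGES and CDK5RAP2 hold none of the 4 motifs in this window. CCAAT was found in 43.4% and 36.4%, CACGTG in 11.8% and 8.88%, and TATAAA in 6.58% and 9.63%. The median GC content was 66.5% for members and 62.7% for all genes. These shares describe letters in a short window and say nothing of binding, and no motif was present in more than 43.4% of the members.

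The members were also grouped by role. The role lists were drawn up with earlier results of these data known, and their counts stand beside the 4.74% of all genes called in each direction. Every gene counted is a member of the chosen run. The nearer scale is therefore all 86 members, with 37.2% called higher and 2.33% lower. Of 5 centrosome and cilium genes 4 were called higher, with a median change of 0.538. They were CNTRL, CDK5RAP2, ODF2 and DYNC2I2, the last a dynein-2 subunit gene at 1.37-fold, while MORN5, at a dim 4.12 in control arrays, differed by -0.01. Of 5 ubiquitin ligase components 3 were called higher, with a median of 0.442, namely FBXW2, ZER1, a CUL2 substrate receptor gene, and ASB6. TRIM32 differed by 0.25, but this rested on knockout replicate 1, at 8.02 beside 7.41 and 7.38.

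Genes of RNA processing and translation were all above 0, with 5 of 8 called higher and a median of 0.396. GLE1, SPOUT1, TRUB2, a pseudouridine synthase gene, URM1, whose product takes part in tRNA thiolation, and STRBP were the 5. URM1 measured between 7.99 and 7.997 on control and 8.34, 8.38 and 8.45 on knockout arrays. RPL12, a ribosomal protein gene, measured 11.01, 11.22 and 11.01 against 11.39, 11.31 and 11.43, 1.23-fold higher without overlap, but was not called. Of 9 vesicle traffic and Golgi genes all were above 0 and 5 were called higher, with a median of 0.36. Besides STOM these were RABGAP1, a GTPase-activating protein gene, at 1.41-fold, the golgin gene GOLGA1 at 1.34-fold, DENND1A, an activator of RAB35, at 1.29-fold and the dynamin gene DNM1 at 1.28-fold. GOLGA2, which encodes the Golgi matrix protein GM130, was only 1.11-fold higher.

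Of 16 transcription and chromatin genes 7 were called higher and none lower, with a median of 0.263. Besides PHF19 and ZNF618 they included SCAI, a cofactor gene, at 1.48-fold, ZNF79 at 1.46-fold, ZBTB34 at 1.45-fold, the homeobox gene PBX3 at 1.33-fold and the histone chaperone gene SET at 1.29-fold. The developmental homeobox genes LHX6, of the low level group, and LHX2 and PRRX2, of the middle group, differed by -0.02, -0.18 and -0.14, with overlapping groups. CDK9, the kinase of the elongation factor P-TEFb, differed by 0.22 and not called. Of 8 signalling genes 3 were called higher, namely NEK6, the protein kinase gene PKN3 at 1.38-fold and MAPKAP1, a subunit of the kinase complex mTORC2, at 1.32-fold. Of 5 genes of mitochondrial proteins COQ4 alone was called. The dolichol pathway genes DOLPP1 and DOLK, which serve protein glycosylation, were 1.32-fold and 1.23-fold higher, DOLPP1 called. In the cytoskeleton group, GSN, the actin-severing gelsolin, was 1.28-fold higher and called, while BBLN was 1.19-fold lower and not called.

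Of 14 genes for secreted proteins, surface receptors and prostaglandin enzymes, C5 alone was called higher and LCN2 and PTGES lower, and the median was 0.0437. The median control level of these 14 was 6.17, against 8.06 for RNA processing and 7.93 for centrosome genes, and the part of level in the difference between roles was not tested. PTGS1, the constitutive cyclooxygenase 1 that feeds the same prostaglandin pathway, differed by -0.19. PTGES2, a membrane-associated prostaglandin E synthase, differed by -0.10 and its groups overlapped. MEGF9 and OLFML2A, both bright, were 1.2-fold and 1.16-fold higher without overlap but not called. None of 14 olfactory receptor genes of the run was measured. The 12 members outside the role lists had a median of 0.172, with NTMT1, an N-terminal methyltransferase gene, called higher at 1.32-fold.

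**Figure D5:**
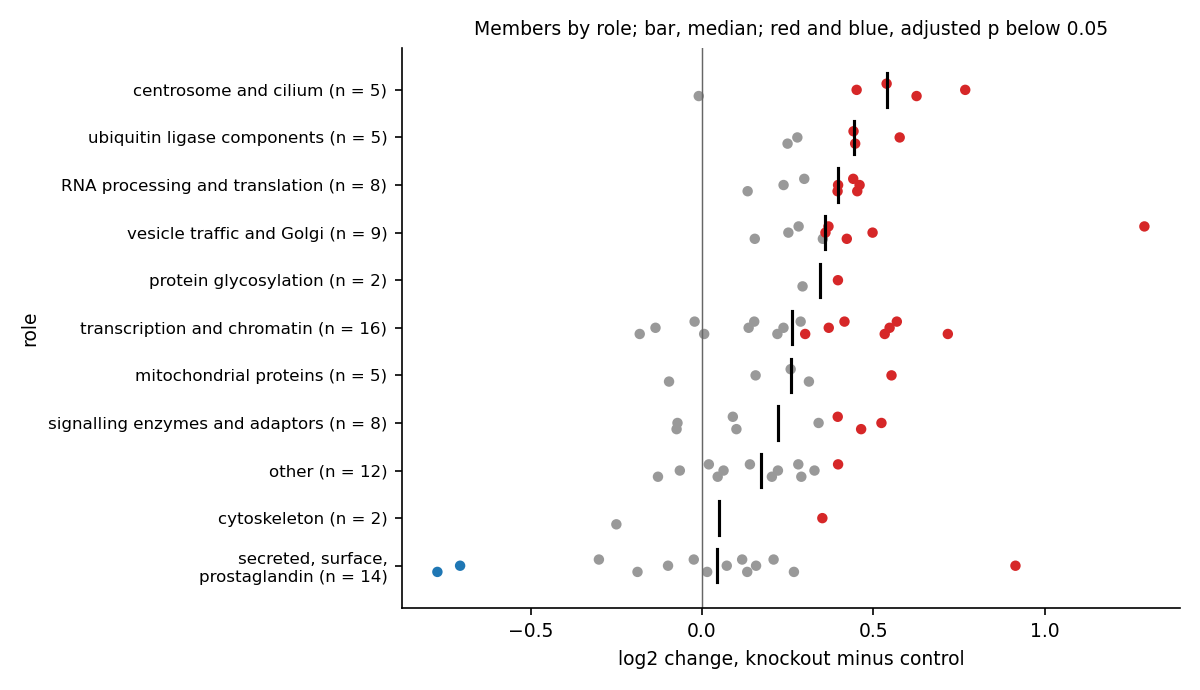
Log2 change, knockout minus control, of the 86 members by role, with red points for members called higher and blue for those called lower at an adjusted p of 0.05 (limma), grey for the others, and a black bar at the median of each role. The centrosome group has the highest median, 0.538, and the secreted and surface group the lowest, 0.0437.

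Genes encoded elsewhere and listed as partners of genes in the run were not used by the rule and could be tested. The product of a listed gene need not act together with that of the gene it is listed for. Of 71 listed partner genes 28 were measured, 18 of them above 0, with a median change of 0.0497. Of the 28, 16 are partners of members, with 12 above 0 and a median of 0.147, and the other 12 are partners of kept genes that were not measured, with 6 above 0 and a median of 0.00127. In limma with adjustment over all genes 1 was called, where 9.49% of all genes were called in either direction. This was EZH2, the catalytic subunit of PRC2 and so a partner of PHF19, which measured 8.06, 8.16 and 8.03 on control and 8.46, 8.55 and 8.64 on knockout arrays, 1.38-fold higher (adjusted p = 0.0125). Its adjusted p rose to 0.0517 without control replicate 1 and to 0.0589 without control replicate 3. SUZ12, another core subunit of PRC2, differed by 0.14. Of the other measured genes listed for PHF19, RBBP4, RBBP7 and PHF1 differed by 0.33, 0.20 and 0.11, and MTF2 by -0.14. The groups of RBBP4 and RBBP7 did not overlap, and none of these genes was called. Partners of CDK9, namely CCNT1, CCNT2 and HEXIM1, differed by 0.24, 0.06 and -0.03, and MTOR, of the complex that holds the MAPKAP1 product, by 0.15, with none called. DYNC2I1, whose product pairs with that of DYNC2I2, differed by 0.28 and was not called. Among the partners below 0, ANKRD44, ACTR3 and SFR1, listed for PPP6C, ARPC5L and SWI5, differed by -0.30, -0.21 and -0.15, with none called.

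Genes between the ends that are not members behaved variously. The 6 measured coding genes left out by the rule had a median change of 0.583, with changes from -1.28 for TRAF1, an adaptor gene of NF-κB signalling, to 1.56 for the matrix gene TNC, and NUP188 of the nuclear pore at 0.78. With them included, 75 of 92 genes were above 0 and the median was 0.28. Of 20 measured non-coding genes within the bounds 11 were above 0, with a median change of 0.0557. Their median control level was 5.51, against 7.19 for members, and the part of level in this median change was not tested. Called higher were 3 of the 20 (15%), against 4.74% of all genes. These were LINC00963, MIR181B2 and MIR181A2HG, the host transcript of the miR-181 cluster there, which was 1.71-fold higher, from 4.88, 5.29 and 5.32 to 6.15, 5.91 and 5.75.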

How the data were processed

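Total RNA of 3 control and 3 knockout samples was amplified over whole transcripts and hybridised as biotin-labelled cDNA, per the labels' protocols. The authors deposited 1 value per probe set and array, taken here as log2 because all lie between 1.16 and 13.75. How they were normalized and summarized is not given in the sources used here; an error in the scale would change every fold.

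Probe sets were named through the platform annotation, where 16098 of 53617 had 1 gene symbol, 0 had several and 37519 had none. All 16098 matched RefSeq GRCh38.p14, used for gene class and order. The probe set with the highest mean was kept for each gene, which left 14884 genes, with no filter on level. Among members this choice concerned LHX2 alone. Groups came from the labels and were compared in R 4.3.3 with limma 3.58.1 (linear model with eBayes, two-sided, Benjamini-Hochberg over all genes, threshold 0.05). Members and lists were chosen with earlier results of these data known. The genes named are the ends of the run and their neighbours, the 10 highest and 6 lowest changes, the brightest members of each role list, and members with partner lists and their called partners. CRB2 and other members beyond these, and genes that are not members, were named after their values were seen.

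The fit was tested on simulated data for these 14884 genes 5 times with 200 changed. On the log2 scale, changes of 0.5, 1 and 2 were recovered for 43.6%, 83.3% and 98.8% of genes, and false calls made up 4.94%. In the data 1412 genes were called, and the simulated noise was independent between genes, so these rates need not hold here. No change as small as the members' median of 0.273 was simulated. The number of arrays limits the precision. Alternatives were a second quantile normalization, 2 centrings, leaving out dim genes, other probe set choices, another prior, array weights, a replicate block, other memberships and leaving out each array. Figures were drawn with matplotlib 3.10.9.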

Additional observations from a re-analysis of the deposited data

How the results depend on the processing

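The median change of the members stayed positive under every alternative run. These same arrays chose the run, so a positive median in refits of them is no support for the shift. It was 0.252 after a second quantile normalization and 0.306 without the dimmest 50% of genes. For members from CDK5RAP2 onward (added after the data were seen) it was 0.289, and with 1 array left out it was 0.255 to 0.287. The number of members called higher was 14 to 27 with 1 array left out, and the number of all genes called was 723 to 1049. Fewer arrays go into those fits. Partner genes called numbered 2 with array weights, 3 without the dimmest 25% or 50% of genes, 3 with a trended robust prior, and 0 to 1 with 1 array left out. Where 2 were called, RBBP4 joined EZH2, and where 3 were, RBBP4 and DYNC2I1 did. Without control replicate 1 the partner called was ANKRD44 and not EZH2. All genes called rose too, from 1412 in the main fit to 1546 with array weights. Without the dimmest 25% and 50% they numbered 1771 and 1887, out of fewer genes. The cause of these moves was not tested beyond that. None of the 26 called members given by the naming rule changed sign in 416 recomputed values. With 1 array left out this was fixed in advance, because the groups of each called member did not overlap. Of the 26 not called, 4 did, in 5 of 407 values, all with 1 array left out: AMBP, ORM1, ORM2 (-0.072 without knockout replicate 1) and SWI5. Same-numbered arrays of the groups had correlations of their deviations of 0.0547, 0.0681 and -0.106, so the numbers were not taken as pairs. With the replicate block 24 members were called higher and 2 lower, 1050 genes in all, and the median was 0.273. No detection calls were used, so the change of a dim member may be too small.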
